A study of Mus musculus with 2 samples.

Results

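The 10 genes described here, Lag3, Havcr2, Cd274, Pdcd1, Vsir, Tigit, Cd200r1, Sirpa, Cd86 and Cd80, encode immune checkpoint and costimulatory molecules. They were chosen by name, and each was found by its symbol as 1 of the 32285 gene rows of the count tables. The study asked how the Arp2/3 complex, which builds branched actin networks, acts in microglia, the resident macrophages of the brain. CD45+ cells that excluded DAPI were sorted from the brains of 12-week-old mice and read by droplet sequencing of transcript 3′ ends, with 1 tag per mouse and all 8 mice in 1 pool. The control group was 4 Arpc4 fl/fl mice without Cre, and the other group was 4 Arpc4 fl/fl mice with the Tg(Cx3cr1-Cre) transgene, called Arpc4ΔCx3cr1. Arpc4 is a subunit of the complex. Cx3cr1-driven Cre is also active in border macrophages, monocytes and some lymphocytes, so microglia were not the only cells that could lose Arpc4. No sequenced group carried Cre without floxed Arpc4, so Cre and the deletion cannot be told apart in these data.

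Levels are given in CPM, the UMI count of a gene scaled to the same total in every mouse, and UMIs, unique molecular identifiers, stand for single captured transcripts. The study's methods name all mice male except 1 female Arpc4ΔCx3cr1 mouse, which the study left out and which the labels do not identify. Arpc4ΔCx3cr1 mouse 1 stood apart from the other 7 mice. Its microglia-like cells had 1383 CPM of Xist, the transcript of the inactive X chromosome, against 3.66 to 13.3 CPM in the other 7. Its hemoglobin genes and other erythrocyte markers summed to 1346 CPM, against 3.06 to 5.68 CPM, and it gave 96.3% of a microglia cluster led by Xist and Fn1. All 8 mice were used, and the results are also given without this mouse.

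Immune checkpoints are receptors and ligands that dampen immune responses, and costimulatory molecules are the signals that a T cell needs beside its antigen receptor. CD80 and CD86 on antigen-presenting cells bind CD28 to activate T cells and CTLA-4 to restrain them, PD-L1 binds PD-1, and LAG-3, TIM-3 and TIGIT are further inhibitory receptors, best known from exhausted T cells, regulatory T cells and NK cells. Myeloid cells carry brakes of their own: VISTA, CD200R1, which binds neuronal CD200, and SIRPα, which reads CD47 as a signal not to engulf, and microglia are known for TIM-3, VISTA and SIRPα.

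The 8 tables held 5251527 UMIs of genes in control mouse 1, which had the fewest cells, and 10419683 to 12878691 in the other 7 mice. They held 19864 barcodes, 0 of them shared between mice, of which 19863 passed the filters (9443 control and 10420 Arpc4ΔCx3cr1). Clusters were named by marker lists. The microglia-like class held 17034 cells (7794 control, 9240 Arpc4ΔCx3cr1) with a median of 4054 UMIs, 3835.5 in control and 4283.5 in Arpc4ΔCx3cr1 cells. The T cell-like class held 113 cells and the NK cell-like class 54. By genotype the T cell-like class had 37 control and 76 Arpc4ΔCx3cr1 cells, and the NK cell-like class 20 and 34. Other classes were 413 macrophages of the brain's borders (CAM), 346 monocytes, 79 B cells, 80 granulocytes, 24 ILC2 and 92 proliferating cells. A further 1060 control and 568 Arpc4ΔCx3cr1 cells stayed unnamed, most of them shallow, and among them were 117 cells of mixed lymphoid clusters that also held microglial transcripts. The tags remove doublets between mice, and no doublet caller was used.

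Each cluster named microglia was held against its markers, and had 4 to 10 of the 10 microglia markers above the T cell, B cell and granulocyte clusters. CAM and monocytes, the nearest classes, were not part of this check. The fewest, 4, were in a cluster of 1458 cells led by hemoglobin genes and Ms4a7, where the label is uncertain. Without the Ms4a7 and hemoglobin cluster, a check chosen after seeing the data, 7 members passed as with it. The genotypes filled different clusters. Control cells led clusters headed by Csmd3 and Bank1 or by Ecscr and Crybb1, where 1.86% to 3.35% of cells were Arpc4ΔCx3cr1, and Arpc4ΔCx3cr1 cells made up 83.6% to 99.8% of the clusters headed by Ctnna3, Xist and Fn1, Ms4a7, Ttr and Cst7, Ccl4 and Ccl3, Cxcl10 and Ifit3, Cst7 and Lgals3, or Arhgap15. The 10 microglia markers, none of them at 0, all fell, with summed levels of 22587 to 22894 CPM in control and 9359 to 12935 CPM in Arpc4ΔCx3cr1 mice. So every level below was read in cells whose identity genes differed between the genotypes as well, and the part of that in the results was not tested.

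Arpc4 itself was read at 241, 224, 233 and 232 CPM in control mice 1 to 4 and at 146, 145, 136 and 132 CPM in Arpc4ΔCx3cr1 mice 1 to 4. The groups did not overlap, and the log2 fold change was -0.63 (SE 0.05, adjusted p = 5.34e-06, edgeR, lower in 4 of 4 Arpc4ΔCx3cr1 mice) and -0.65 without Arpc4ΔCx3cr1 mouse 1. In other classes the genotypes overlapped. Means were 192 ± 24.6 CPM in control and 227 ± 13.6 CPM in Arpc4ΔCx3cr1 CAM, and 248 ± 41.6 and 273 ± 35.4 CPM in monocytes, so no lower level was seen there. T cell-like cells had 27 and 29 UMIs of Arpc4, or 197 and 118 CPM with all cells of a genotype summed. These were not tested. A 3′ count does not show which cells lost the floxed exons.

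In microglia-like cells 7 of the 10 members differed between the genotypes. The receptors Pdcd1, Lag3 and Havcr2 and the ligands Cd274 and Cd86 rose, and the VISTA gene Vsir and Sirpa fell. The test was edgeR's on counts summed per mouse, with p adjusted over all 12730 genes tested and a threshold of 0.05. Of the 9 members tested, 7 passed, beside 45.9% of all genes. In direction, 5 were higher, beside 22.8% of all genes, and 2 lower, beside 23.0%. In all 5839 genes passed, 2905 of them higher and 2934 lower, so the share of members past the threshold has to be read against a wide change. Without Arpc4ΔCx3cr1 mouse 1, 8 members passed. Cd200r1 and Cd80 did not pass with all 8 mice, and Tigit had 2 UMIs in all microglia-like cells and was not tested. The median log2 fold change of the 9 tested members was 0.32 and that of all tested genes -0.01, while the median size was 0.53 against 0.26. In CPM, 7 of the 10 members had no overlap between the genotypes, beside 47.9% of the genes tested. CPM here are UMIs over the mouse's total. The fold changes also use edgeR's TMM factors, 1.02 to 1.05 in control and 0.955 to 0.982 in Arpc4ΔCx3cr1 mice, which put them 0.11 above the log2 ratio of CPM, and all 7 members keep their direction in both.

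The members lie apart in the mouse genome (mm10, GENCODE vM21). Pdcd1 (ENSMUSG00000026285) lies at chr1:94038305-94052553 on the minus strand, Lag3 (ENSMUSG00000030124) at chr6:124904361-124911705 on the minus strand, Havcr2 (ENSMUSG00000020399) at chr11:46454935-46481255 on the plus strand and Vsir (ENSMUSG00000020101) at chr10:60346851-60372684 on the plus strand. Cd274 (ENSMUSG00000016496) lies at chr19:29367455-29388095 and Sirpa (ENSMUSG00000037902) at chr2:129592835-129632228, both on the plus strand. The other 4 share chromosome 16. They are Cd86 (ENSMUSG00000022901) at chr16:36603869-36666081 and Tigit (ENSMUSG00000071552) at chr16:43648867-43664146, both on the minus strand, with Cd80 (ENSMUSG00000075122) at chr16:38455561-38496335 and Cd200r1 (ENSMUSG00000022667) at chr16:44765736-44794978 on the plus strand. The count of same-strand genes overlapping a member was 0. Cdh23 overlaps Vsir and AC119228.1 overlaps Cd274 on the opposite strand.

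The promoters of Cd274, Pdcd1 and Vsir are printed because these 3 genes had the largest changes among the members with a promoter at hand, and their promoters can be compared for motifs of factors active in macrophages. RefSeq (GRCm38.p6) promoters, 250 bases before to 50 after the start, were found for 6 of the 10 members, with no entry for Lag3, Cd200r1, Sirpa and Cd86, and those printed span chr19:29367188-29367487 (plus strand), chr1:94052504-94052803 (minus strand) and chr10:60346601-60346900 (plus strand). Capitals mark matches, on either strand, to 2 copies of GAAA with any 2 bases between them (interferon element), to TTCNNNGAA (STAT element) or to GAGGAA (PU.1 element).
Cd274: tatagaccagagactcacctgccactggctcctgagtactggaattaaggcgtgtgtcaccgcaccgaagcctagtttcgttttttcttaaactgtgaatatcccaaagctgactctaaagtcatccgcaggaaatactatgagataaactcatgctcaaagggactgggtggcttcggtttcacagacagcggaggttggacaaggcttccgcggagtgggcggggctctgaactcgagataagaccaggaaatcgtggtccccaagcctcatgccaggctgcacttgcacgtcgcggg
Pdcd1: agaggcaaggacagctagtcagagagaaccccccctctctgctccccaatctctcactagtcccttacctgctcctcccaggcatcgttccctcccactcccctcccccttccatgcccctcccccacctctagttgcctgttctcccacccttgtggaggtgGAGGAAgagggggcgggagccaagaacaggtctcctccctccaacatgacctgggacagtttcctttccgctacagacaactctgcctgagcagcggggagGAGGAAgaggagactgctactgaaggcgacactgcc
Vsir: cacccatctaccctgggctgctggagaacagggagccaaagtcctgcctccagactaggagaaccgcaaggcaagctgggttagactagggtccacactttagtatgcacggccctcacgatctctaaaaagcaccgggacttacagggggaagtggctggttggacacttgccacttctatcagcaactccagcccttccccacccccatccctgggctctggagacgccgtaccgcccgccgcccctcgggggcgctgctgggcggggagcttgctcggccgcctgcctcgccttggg
Of all 32851 promoters of this length, 3.44% held the interferon letters, 8.30% the STAT letters and 28.3% the PU.1 letters. The Pdcd1 promoter held GAGGAA at 2 places, beginning at bases -87 and 15 from the start site, and the Havcr2 promoter at 1 place, beginning at base -8. Those of Cd274, Vsir, Tigit and Cd80 had none of the 3 motifs. A match describes the letters and is not evidence of a bound factor.

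Among the inhibitory receptors, Pdcd1, which encodes PD-1, had 5.50, 4.23, 6.09 and 5.39 CPM in the microglia-like cells of control mice 1 to 4 and 35.4, 39.3, 48.5 and 63.1 CPM in Arpc4ΔCx3cr1 mice 1 to 4. Every Arpc4ΔCx3cr1 mouse lay far above every control mouse, with mouse 4 highest and mouse 1 lowest. The means were 5.30 ± 0.779 and 46.6 ± 12.3 CPM (SD, n = 4 mice each). The log2 fold change was 3.25 (SE 0.21, a 9.54-fold rise, adjusted p = 7.83e-07, edgeR), and 3.37 without Arpc4ΔCx3cr1 mouse 1. Pdcd1 made up 27.5 CPM of the empty droplets of the pool, above the level in control microglia, and after subtraction of a 10% ambient share the log2 fold change was 4.24.

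Lag3 encodes LAG-3, a receptor for MHC class II that restrains T cells. It had 125, 124, 140.1 and 149 CPM in control mice 1 to 4 and 247, 289, 375 and 341 CPM in Arpc4ΔCx3cr1 mice 1 to 4. The groups did not overlap, and Arpc4ΔCx3cr1 mice 3 and 4 were the highest. The means were 135 ± 12.2 and 313 ± 56.2 CPM, and the log2 fold change was 1.32 (SE 0.12, 2.50-fold, adjusted p = 9.66e-06, edgeR, higher in 4 of 4 mice), or 1.42 without Arpc4ΔCx3cr1 mouse 1.

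Havcr2, the gene of the phosphatidylserine and galectin-9 receptor TIM-3, had 250.4, 248, 251 and 257 CPM in control mice and 285, 299, 288 and 291 CPM in Arpc4ΔCx3cr1 mice, each in the order 1 to 4. The spread within each group was small and the groups did not overlap. From 251 ± 4.09 CPM the mean went to 291 ± 6.15 CPM, a log2 fold change of 0.32 (SE 0.04, 1.24-fold, adjusted p = 0.000173, edgeR, higher in 4 of 4 mice), or 0.33 without Arpc4ΔCx3cr1 mouse 1. This is a small step beside those of Pdcd1 and Lag3, and 0.11 of it comes from the TMM factors.

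Tigit, a receptor of T and NK cells for the nectin-like CD155, was all but absent from microglia-like cells, with 1 UMI in control mouse 4 (0.106 CPM) and 1 in Arpc4ΔCx3cr1 mouse 4 (0.0855 CPM). No fold is given at this depth.

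Because Pdcd1, Lag3 and Tigit are best known from lymphocytes, the lymphocyte marker lists are given beside them. In microglia-like cells the 10 T cell markers summed to 2.27 to 3.11 CPM in control and 5.40 to 14.3 CPM in Arpc4ΔCx3cr1 mice, with Cd5, the only one tested, the most abundant and higher, and none at 0. The 10 NK cell markers summed to 1.91 to 2.77 and 5.40 to 9.45 CPM, and of the 2 tested both, Klrb1c and Txk, were higher. In T cell-like cells the T cell list summed to 7039 CPM beside 96.6 CPM of Pdcd1. The part of lymphocyte transcripts in the microglial Pdcd1 level was not tested.

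Vsir encodes VISTA, an inhibitory molecule of the B7 family that acts as ligand and as receptor and is abundant on myeloid cells. It had 808, 788, 784 and 818 CPM in control mice 1 to 4 and 305, 385, 352 and 301 CPM in Arpc4ΔCx3cr1 mice 1 to 4. The groups were far apart, with Arpc4ΔCx3cr1 mice 1 and 4 lowest and the control mice close together. The mean fell from 799.6 ± 16.0 to 336 ± 39.95 CPM, with a log2 fold change of -1.15 (SE 0.07, 0.452-fold, adjusted p = 8.24e-07, edgeR), and -1.10 without Arpc4ΔCx3cr1 mouse 1.

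**Figure D1:**
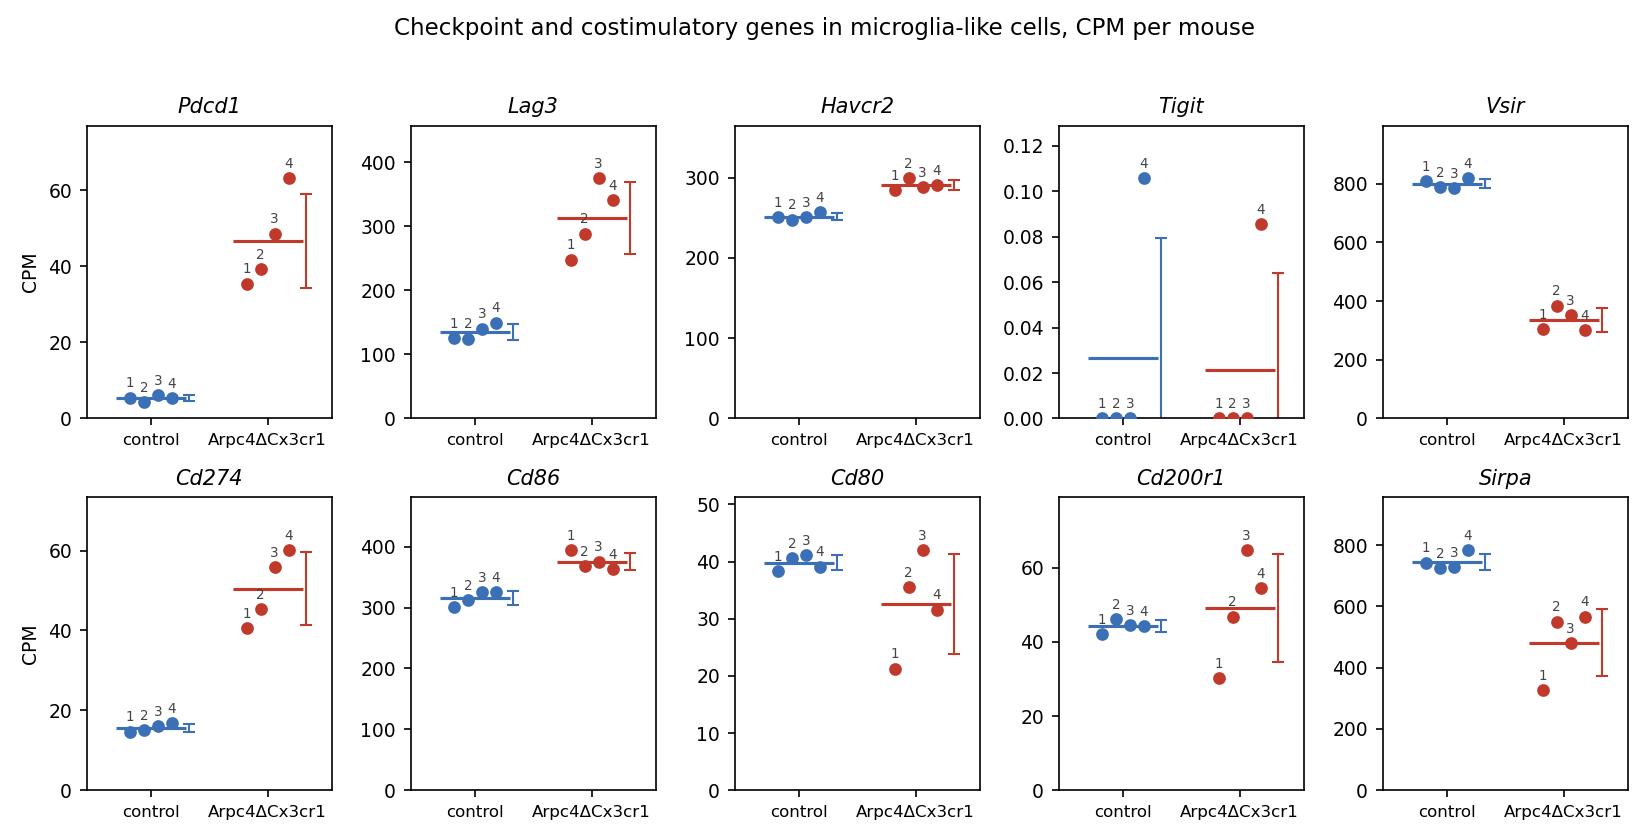
CPM of each member in the microglia-like cells of each mouse, with 1 numbered point per mouse, a line at the mean and a bar of 1 SD for 4 control (blue) and 4 Arpc4ΔCx3cr1 (red) mice. Pdcd1, Lag3, Havcr2, Cd274 and Cd86 are higher and Vsir and Sirpa lower in every Arpc4ΔCx3cr1 mouse, with no overlap, while Cd200r1 and Cd80 overlap and Tigit is near 0.

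Of the ligands, Cd274 encodes PD-L1, which binds PD-1 and is a classic interferon-induced gene. It had 14.6, 15.1, 16.0 and 16.7 CPM in control mice 1 to 4 and 40.6, 45.4, 55.8 and 60.1 CPM in Arpc4ΔCx3cr1 mice 1 to 4. The groups did not overlap, and Arpc4ΔCx3cr1 mouse 4 was the highest. Means were 15.6 ± 0.935 and 50.5 ± 9.03 CPM, with a log2 fold change of 1.80 (SE 0.13, 3.48-fold, adjusted p = 1.55e-06, edgeR), and 1.89 without Arpc4ΔCx3cr1 mouse 1. Thus both PD-1 and its ligand PD-L1 rose at the RNA level in the same cell class.

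Cd86, a ligand of CD28 and CTLA-4, had 301, 312, 325 and 325 CPM in control mice 1 to 4 and 395, 368, 376 and 364 CPM in Arpc4ΔCx3cr1 mice 1 to 4. All Arpc4ΔCx3cr1 mice were above all control mice, with mouse 1 highest. The mean rose from 316 ± 11.7 to 375 ± 13.7 CPM (log2 fold change 0.36, SE 0.05, 1.28-fold, adjusted p = 0.000216, edgeR), and the log2 fold change was 0.33 without Arpc4ΔCx3cr1 mouse 1.

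Cd80, the other B7 ligand of CD28 and CTLA-4, had 38.3, 40.6, 41.1 and 39.1 CPM in control mice and 21.2, 35.5, 41.99 and 31.5 CPM in Arpc4ΔCx3cr1 mice, each in the order 1 to 4. Arpc4ΔCx3cr1 mouse 1 was low and mouse 3 above every control mouse, so the groups overlapped. With a log2 fold change of -0.18 (SE 0.16, adjusted p = 0.389, edgeR), it did not pass, and without Arpc4ΔCx3cr1 mouse 1 the value was -0.02 (adjusted p = 0.857).

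The last group holds the receptors that restrain myeloid cells. Sirpa encodes SIRPα, the inhibitory receptor for CD47. It had 743, 725, 728 and 784 CPM in control mice 1 to 4 and 327, 550.3, 479 and 566 CPM in Arpc4ΔCx3cr1 mice 1 to 4. No Arpc4ΔCx3cr1 mouse reached the control range, and mouse 1 was well below the other 3. Means were 745 ± 27.3 and 481 ± 109 CPM, and the log2 fold change was -0.53 (SE 0.14, 0.694-fold, adjusted p = 0.00985, edgeR, lower in 4 of 4 mice). Without Arpc4ΔCx3cr1 mouse 1 it was -0.38, still past the threshold.

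Cd200r1, the receptor for CD200, had 42.1, 46.0, 44.5 and 44.2 CPM in control mice 1 to 4 and 30.3, 46.8, 64.8 and 54.5 CPM in Arpc4ΔCx3cr1 mice 1 to 4. Mouse 1 was below and mice 2 to 4 above every control mouse, so the groups overlapped through 1 mouse. The log2 fold change was 0.26 (SE 0.18, adjusted p = 0.277, edgeR), which did not pass. Without Arpc4ΔCx3cr1 mouse 1 it was 0.43 (adjusted p = 0.00239, edgeR, 3 mice against 4, higher in 3 of 3), past the threshold, so whether Cd200r1 counts as changed depends on that mouse.

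Deeper cells show more genes, so the share of cells with a UMI was read after thinning each microglia-like cell to 2000 UMIs, which left out 287 control and 328 Arpc4ΔCx3cr1 cells below that depth. For Pdcd1 the share was 1.04%, 0.770%, 0.945% and 0.991% in control mice 1 to 4 and 6.75%, 6.53%, 8.20% and 11.5% in Arpc4ΔCx3cr1 mice 1 to 4. For Cd274 it was 2.39%, 2.54%, 2.74% and 2.97% against 6.56%, 6.35%, 9.61% and 10.8%. Both PD-1 and PD-L1 transcripts were thus found in a small part of the cells, and in a larger one in every Arpc4ΔCx3cr1 mouse. For Lag3 the share was 21.5%, 20.3%, 24.1% and 23.8% against 35.2%, 38.8%, 48.4% and 45.5%. For Vsir it was 80.6%, 79.1%, 79.1% and 79.0% against 43.8%, 51.3%, 49.3% and 44.1%. Vsir went from a gene seen in most cells to one seen in about as many as not.

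Sirpa was seen in 76.2%, 74.0%, 74.7% and 78.3% of control and 44.0%, 61.6%, 55.6% and 63.2% of Arpc4ΔCx3cr1 cells at 2000 UMIs, mice 1 to 4 each. The ranges of Havcr2 were 35.7% to 38.8% and 40.05% to 42.4%, and those of Cd86 42.7% to 45.8% and 48.1% to 51.2%. Cd200r1 (6.85% to 8.33%, and 5.24% to 10.4%) and Cd80 (6.31% to 7.99%, and 3.63% to 7.55%) overlapped between the genotypes. Thus 7 of the 10 members had shares with no overlap, beside 40.0% of all genes tested.

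Without thinning, 7 members again did not overlap, beside 39.9% of all genes. The shares ran from 1.76% to 2.32% in control and from 13.6% to 23.0% in Arpc4ΔCx3cr1 mice for Pdcd1, and from 5.35% to 6.12% and 14.7% to 22.0% for Cd274. They ran from 36.5% to 38.9% and 56.5% to 70.4% for Lag3, and from 92.9% to 95.1% and 68.1% to 75.1% for Vsir. For Sirpa they were 90.4% to 91.1% and 69.3% to 84.9%. The genotype gap in these 5 genes thus stood with and without thinning. At 1000 UMIs, 7 members did not overlap, beside 33.7% of all genes, with Pdcd1 at 0.546% to 0.808% and 3.25% to 5.43%.

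Cell types that should lack a gene give the background of such shares, since free RNA of all 8 mice was shared in 1 pool. At 1000 UMIs, Lag3 was read in 0 of 80 granulocytes (median 10537.5 UMIs), which allows up to 3.75%, and in 3.80% of 79 B cells (median 3065 UMIs), against 12.6% to 13.4% of control and 19.7% to 29.0% of Arpc4ΔCx3cr1 microglia-like cells. At 1000 UMIs Pdcd1 was read in 0 of 80 granulocytes and 2.53% of B cells, 0 of 43 control and 2 of 36 Arpc4ΔCx3cr1 cells. Without thinning it was in 4 of 80 granulocytes, 0 of 35 control and 4 of 45 Arpc4ΔCx3cr1 cells. The control microglial share of Pdcd1 at 1000 UMIs, 0.546% to 0.808%, lies below both limits for 0 of 80, so it cannot be told from background. The Arpc4ΔCx3cr1 share of 3.25% to 5.43% lies around these limits. In CAM, with 406 cells at that depth, Pdcd1 was in 0.739%, and in monocytes in 0.289%. The shares of all 4 Arpc4ΔCx3cr1 mice lay above both.

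For other members, shares of lymphocytes at 1000 UMIs are set beside those of microglia. Lymphocytes can express some of these genes, so their shares are not a pure background, and granulocytes, which are myeloid cells, are not used for it. Vsir was in 9.26% of NK cells (median 3731 UMIs), 9.73% of T cells (median 3033 UMIs) and 10.1% of B cells, against 55.1% to 57.6% of control and 24.7% to 31.1% of Arpc4ΔCx3cr1 microglia-like cells. Sirpa was in 0.885% of T cells, 1.85% of NK cells and 5.06% of B cells, against 49.7% to 53.9% and 26.2% to 39.5%. Havcr2 and Cd86 were each in 0 of 54 NK cells, where the floor of 3 counts allows up to 5.56%. They were in 3.54% and 4.42% of T cells and in 3.80% and 2.53% of B cells. The microglial shares, control first, were 21.0% to 21.6% and 24.0% to 25.3% for Havcr2. For Cd86 they were 24.8% to 26.6% and 28.4% to 31.9%. Cd274 was in 0.885% of T cells (exact 95% interval up to 4.83%) and 2.53% of B cells (0.308% to 8.85%), against 1.15% to 1.63% and 3.71% to 4.91% of microglia-like cells, so neither genotype's share can be told from those of these classes.

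**Figure D2:**
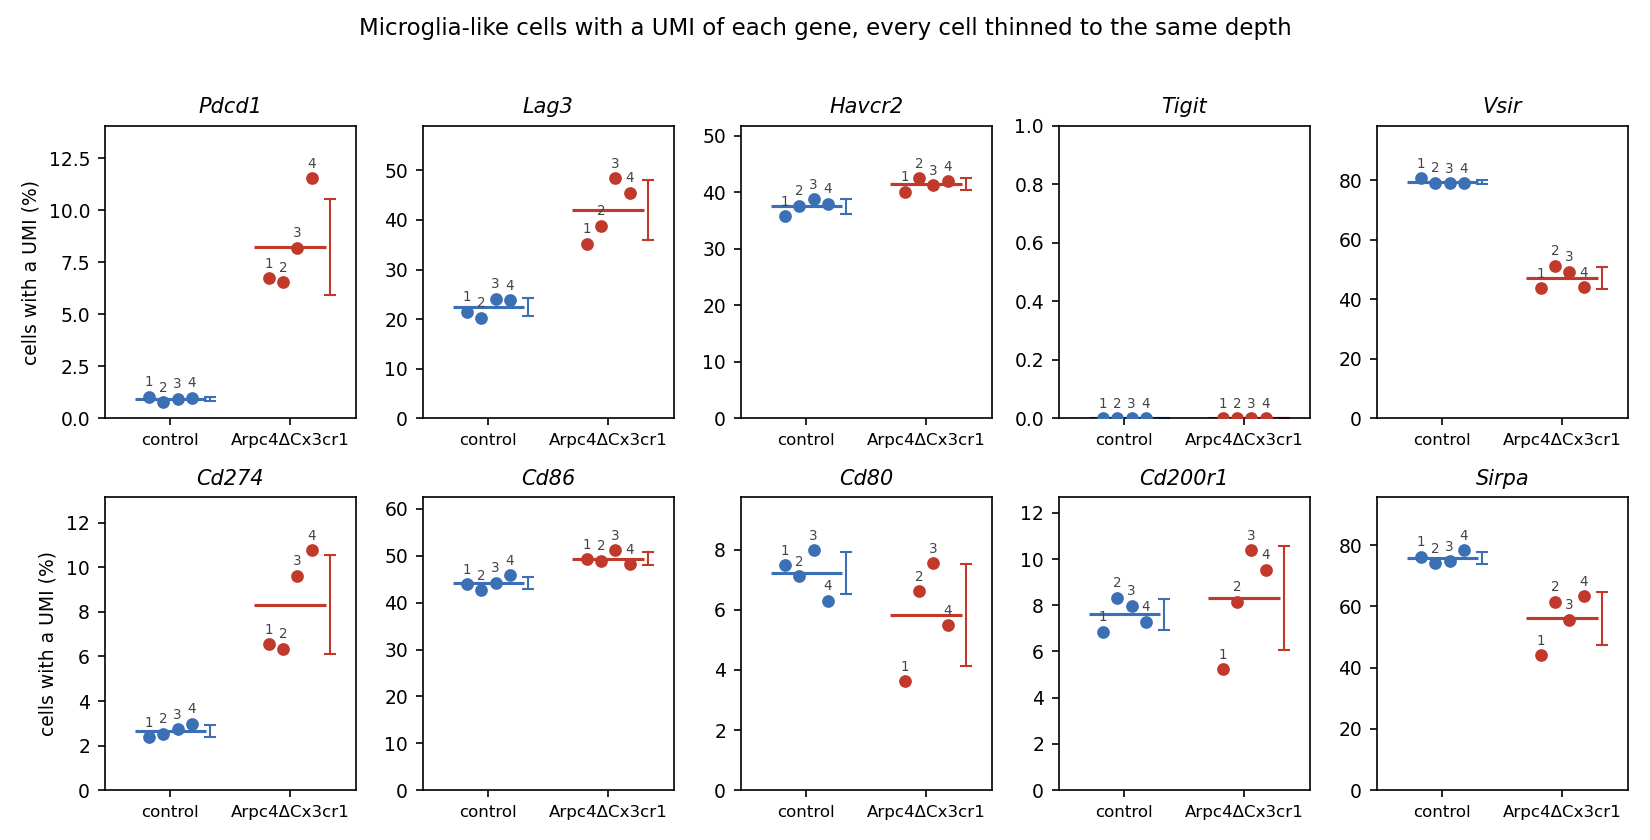
Percent of microglia-like cells with a UMI of each member after thinning to 2000 UMIs, with 1 numbered point per mouse, a line at the mean and a bar of 1 SD for 4 control (blue) and 4 Arpc4ΔCx3cr1 (red) mice. The genotypes do not overlap for Lag3, Havcr2, Cd274, Pdcd1, Vsir, Sirpa and Cd86, and Vsir lies at 79.0% to 80.6% in control and 43.8% to 51.3% in Arpc4ΔCx3cr1 mice.

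The members did not share 1 pattern among the Arpc4ΔCx3cr1 microglia clusters, which were made without these 10 genes and described here without a test. Cells numbered 1375 in the cluster led by Ms4a7, a gene of border macrophages, 526 in the interferon cluster, 526 in the chemokine cluster led by Ccl4 and Ccl3, 465 in the Cst7 and Lgals3 cluster and 6187 in the other Arpc4ΔCx3cr1 clusters. The Cst7 and Lgals3 cluster is called the Cst7 cluster below, after its first leading gene. With Arpc4ΔCx3cr1 cells summed, Cst7 itself was at 1030 CPM there and at 1084 CPM in the chemokine cluster. It was at 961 CPM in the cluster led by Ttr and Cst7, so the name does not set the Cst7 cluster apart by this gene. Cd274 was highest in the interferon cluster, with 102, 92.4, 107 and 109.5 CPM in mice 1 to 4, next to 46.8, 81.7, 101.5 and 84.9 CPM in the chemokine cluster. It had 20.6 to 31.9 CPM in the Ms4a7 cluster and 16.5, 2.77, 15.4 and 10.3 CPM in the Cst7 cluster, from 15 UMIs in all, where no mouse was above the control range of 14.6 to 16.7 CPM. In the other Arpc4ΔCx3cr1 clusters it had 38.2 to 56.4 CPM, above the 15.6 CPM mean over all control microglia-like cells in each of the 4 mice, while the control cells of these same clusters had 59.5, 38.5, 30.3 and 16.8 CPM, which overlaps.

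Of the 5 cluster groups, the chemokine cluster had the highest Pdcd1 in mice 1, 2 and 4, with 86.4, 73.2, 59.5 and 102 CPM in mice 1 to 4. Pdcd1 had 47.1 to 66.9 CPM in the interferon cluster. It had 35.1 to 61.4 CPM in the other Arpc4ΔCx3cr1 clusters, 33.2 to 61.8 CPM in the Cst7 cluster and 13.001 to 23.7 CPM in the Ms4a7 cluster. Each of these 5 cluster groups lay above the highest control mouse, read over all its microglia-like cells, in all 4 Arpc4ΔCx3cr1 mice. The cluster led by Arhgap15, among the other Arpc4ΔCx3cr1 clusters, did not show this rise in every mouse, with 4.53, 12.6 and 0 CPM in mice 2 to 4. Of its 431 cells 65.9% came from mouse 2, so the values of mice 3 and 4 rest on few cells. The cluster led by Xist and Fn1, also among the other Arpc4ΔCx3cr1 clusters, had 106 CPM in mouse 4, above the chemokine cluster of that mouse. As 96.3% of its cells came from mouse 1, this value rests on few cells. Control cells of the chemokine cluster had 42.3, 16.3, 11.2 and 18.7 CPM of Pdcd1, all below the Arpc4ΔCx3cr1 mice there. Within clusters the share of all genes without overlap was not counted, so these ranges are not read as a separation of the genotypes. Control cells of the other Arpc4ΔCx3cr1 clusters had 10.8, 19.2, 35.8 and 26.2 CPM, which overlaps. Lag3 was instead high in the Cst7 cluster, with 490, 418, 696 and 605 CPM in mice 1 to 4, and in the cluster led by Ttr and Cst7, 1 of the other Arpc4ΔCx3cr1 clusters, with 504, 516, 578 and 566 CPM. In the chemokine cluster, where Cst7 was as high, Lag3 had 184, 280, 293 and 312 CPM. It was lowest in the Ms4a7 cluster, with 61.8, 78.6, 58.7 and 85.3 CPM, under the 124 to 149 CPM of control mice. Over all the other Arpc4ΔCx3cr1 clusters Lag3 had 259, 327, 405 and 391.7 CPM.

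Cd86 had 514, 496, 408 and 439 CPM in mice 1 to 4 in the interferon cluster, where it was highest in mice 2 to 4. It had 538, 364, 380 and 414 CPM in the Ms4a7 cluster, 515, 387, 337 and 354 CPM in the chemokine cluster and 353 to 383 CPM in the other Arpc4ΔCx3cr1 clusters, and it was lowest in the Cst7 cluster (204 to 290 CPM). Cd80 was also low there, with 4.71 to 15.4 CPM against 22.2 to 45.7 CPM in the other Arpc4ΔCx3cr1 clusters. Among these cluster groups both B7 ligands thus had their low point in the Cst7 cluster. Control cells had 549, 512, 586 and 455 CPM of Cd86 in the chemokine cluster, in mice 1 to 4. They had 516 and 425 CPM in the interferon cluster in control mice 2 and 4, and 325 to 417 CPM in the other Arpc4ΔCx3cr1 clusters. These ranges overlapped those of the Arpc4ΔCx3cr1 cells, so a rise of Cd86 within these clusters was not shown. Havcr2 had 108 to 207 CPM in the Cst7 cluster, 196 to 242 CPM in the interferon cluster, 212 to 221 CPM in the Ms4a7 cluster and 241 to 284 CPM in the chemokine cluster. In the other Arpc4ΔCx3cr1 clusters it had 301 to 332 CPM. Only there did all 4 mice lie above the 248 to 257 CPM of control mice. The control cells of these other clusters had 243 to 314 CPM, which overlaps, and those of the chemokine cluster 218 to 350 CPM.

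Vsir was below the control range in every Arpc4ΔCx3cr1 cluster group, with 255, 220, 208 and 182 CPM in the chemokine cluster, 228 to 274 CPM in the Ms4a7 cluster, 337 to 520 CPM in the Cst7 cluster and 312 to 403 CPM in the other Arpc4ΔCx3cr1 clusters. Control cells in these clusters were few and lower in Vsir than other control cells. They had 408 CPM in the Cst7 cluster in the 1 mouse with enough cells, and 399 and 259 CPM in the Ms4a7 cluster in control mice 2 and 4, so a loss within the Cst7 and Ms4a7 clusters was not shown. Sirpa in the chemokine cluster had 378, 760, 787 and 742 CPM in mice 1 to 4, which for mice 2 to 4 is within or just above the range of 725 to 784 CPM over all control microglia-like cells, and in the Ms4a7 cluster 249 to 431 CPM. The control cells of the chemokine cluster, 13 to 33 per mouse, had more, with 1042, 854, 865 and 892 CPM. The share of all genes without overlap was not counted within clusters, so no separation of the genotypes in Sirpa is read from these ranges. Cd200r1 was low in the Cst7 cluster (7.07 to 27.7 CPM) and the Ms4a7 cluster (22.8 to 31.9 CPM).

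**Figure D3:**
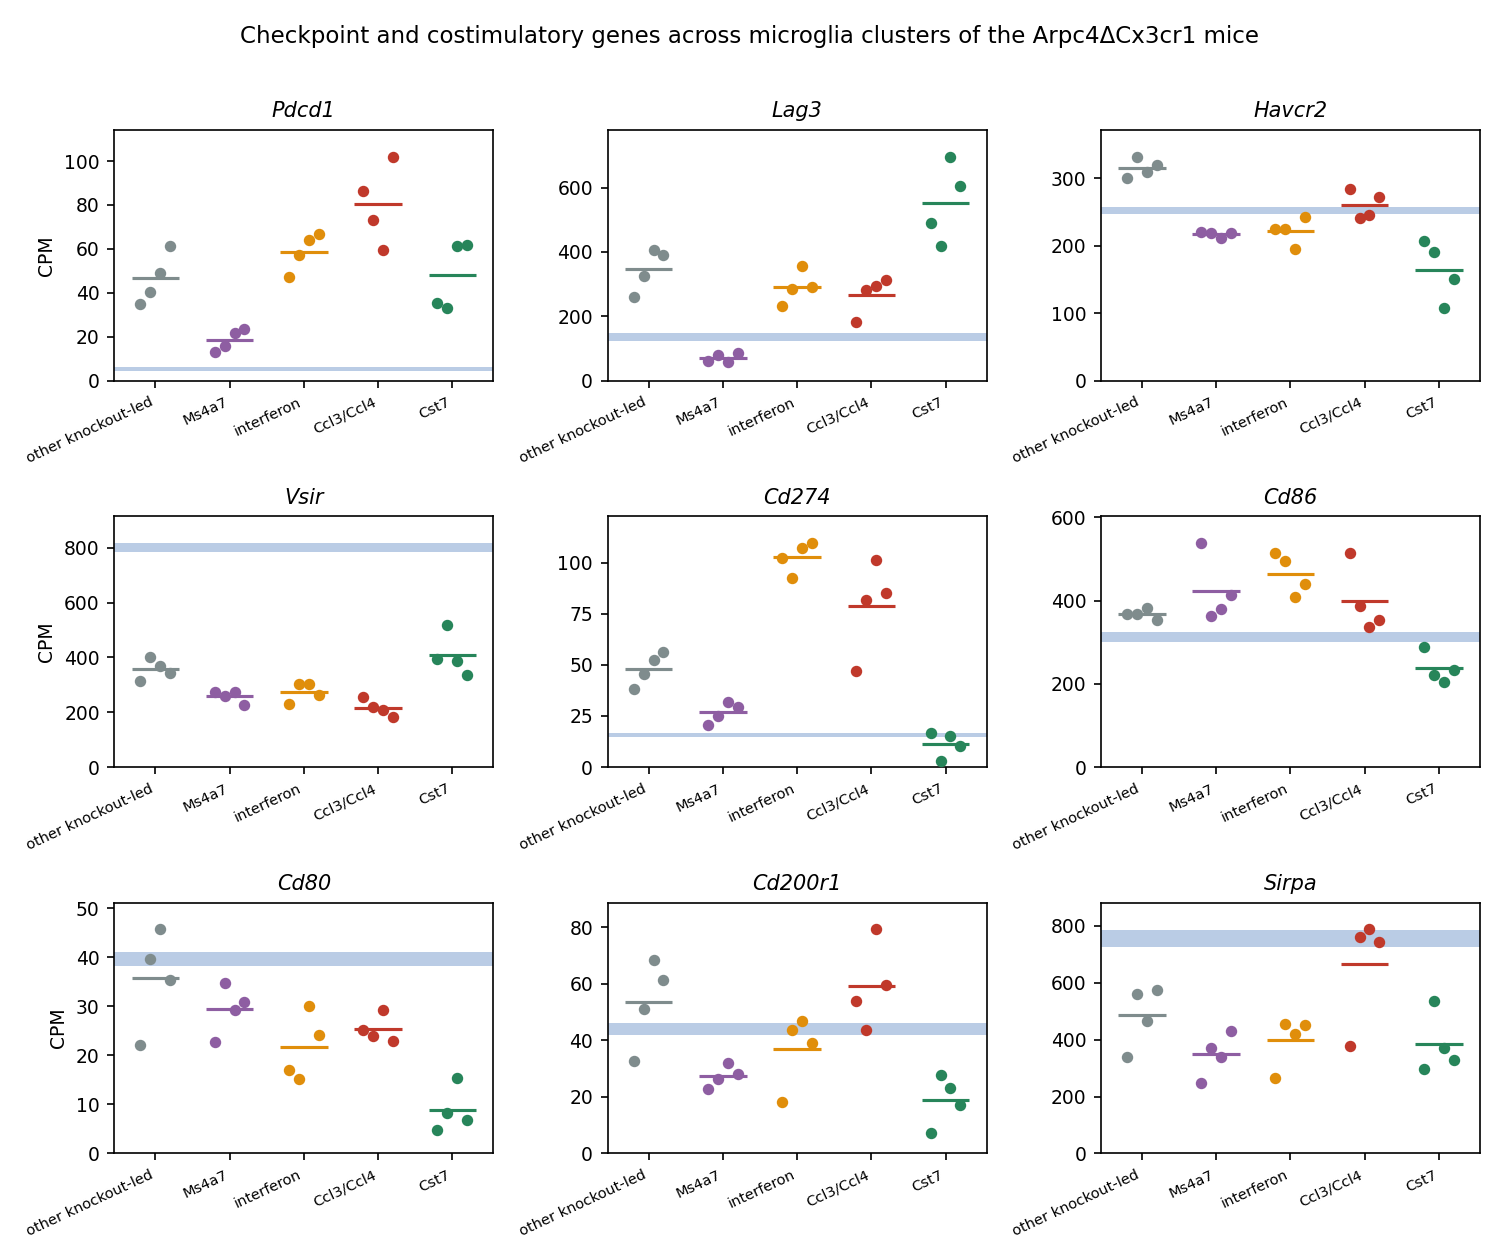
CPM of 9 members in groups of Arpc4ΔCx3cr1 microglia clusters, 1 point per Arpc4ΔCx3cr1 mouse with a line at the mean of the 4 mice, and a blue band from the lowest to the highest control mouse over all its microglia-like cells. Of these groups Cd274 is highest in the interferon cluster and Lag3 in the Cst7 cluster, and Vsir is below the control band in each.

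Across cell classes, Vsir, Sirpa and Cd86 were highest in microglia-like cells and next in CAM. Values are means of 4 mice, control first, with SD where given. Vsir had 280 ± 36.3 CPM in control CAM and 233 ± 45.6 CPM in Arpc4ΔCx3cr1 CAM, 239 ± 71.8 and 204 CPM in granulocytes, 208 ± 172 and 157 CPM in B cells and 137 ± 53.7 and 155 CPM in monocytes. CAM, granulocytes and B cells did not differ beyond their spread, and all were below control microglia. Sirpa had 328 and 368 CPM in CAM, 194 and 284 CPM in monocytes and 229 and 214 CPM in granulocytes. Cd86 had 210 and 265 CPM in CAM and 80.2 and 88.6 CPM in monocytes, and Cd274 had 40.4 and 59.8 CPM in monocytes. The genotypes overlapped for each of these. In CAM 0 of the 10 members had no overlap between the genotypes, beside 4.72% of the genes with at least 10 UMIs there, a set that Tigit (0 UMIs) and Pdcd1 (7 UMIs) could not enter, so no separation like that of Vsir and Sirpa in microglia was seen at this number of cells. In proliferating cells (92 in all) Lag3 had 5.20 to 85.1 CPM in control and 119 to 239.7 CPM in Arpc4ΔCx3cr1 mice (15 and 102 UMIs). Havcr2 had 28.4 to 65.0 and 71.7 to 234 CPM there (22 and 96 UMIs). The share of all genes without overlap was not counted in this class, so these ranges are not read as a separation of the genotypes. Cd274 in granulocytes had 0 UMIs in control and 7 in Arpc4ΔCx3cr1 mice. None of these differences was tested, nor that between cell classes.

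In monocytes Cd200r1 was set apart, with 66.3, 72.7, 40.6 and 63.0 CPM in control mice 1 to 4 and 9.90, 8.46, 10.3 and 0 CPM in Arpc4ΔCx3cr1 mice 1 to 4. Every Arpc4ΔCx3cr1 mouse lay far below every control mouse. The difference was not tested, and it rests on 63 UMIs in all. Of the 10 members 1, Cd200r1, had no overlap in monocytes, beside 7.96% of the genes with at least 10 UMIs there, which again leave out Tigit (0 UMIs) and Pdcd1 (9 UMIs). The class had 114 control and 232 Arpc4ΔCx3cr1 cells. Its leading genes were Saa3, Plac8, Napsa, S100a4, Cd209a, H2-Eb1, H2-Aa, Ear2, Plbd1 and Klf2. Cd209a is a gene of monocyte-derived dendritic cells, so the label is uncertain, and the part of such cells in the class was not tested.

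The T cell-like class was named from the T cell list, and its clusters were led by Cxcl10, Gzmk and Cd8a or by Trdc and Il23r. It was not tested between genotypes: the mice had 7, 8, 11 and 11 control and 32, 6, 25 and 13 Arpc4ΔCx3cr1 cells, and fewer than 3 control mice had the 10 cells required. Pdcd1 gave 2, 5, 2 and 4 UMIs in control mice 1 to 4 and 16, 2, 2 and 4 UMIs in Arpc4ΔCx3cr1 mice 1 to 4. Pooled, this is 94.9 CPM in control and 97.6 CPM in Arpc4ΔCx3cr1 T cells, where mouse 1 gave 16 of the 24 UMIs. By mouse, 1 to 4, it is 78.2, 145, 62.9 and 88.6 CPM in control and 161, 108, 27.3 and 72.8 CPM in Arpc4ΔCx3cr1 mice. No difference between genotypes in Pdcd1 was detectable at this depth. A Pdcd1 UMI was seen in 11 of 37 control and 15 of 76 Arpc4ΔCx3cr1 T cells, together 23.0% (exact 95% interval 15.6% to 31.9%), and at 1000 UMIs in 10.6% (5.61% to 17.8%), against 2.53% of B cells and 0 of 54 NK cells. The interval at 1000 UMIs lies above the limits for 0 of 80 granulocytes, 3.75% by the floor of 3 counts and 4.51% by the exact interval. It overlaps the B cell interval of 0.308% to 8.85%.

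Vsir gave 21 UMIs in control and 28 in Arpc4ΔCx3cr1 T cells (153 and 114 CPM), and at 1000 UMIs a share of 9.73%, near the 10.1% of B cells, from which it cannot be told apart. Tigit gave 1 UMI in control and 4 in Arpc4ΔCx3cr1 T cells, 13.1 CPM in all against 0.146 CPM in empty droplets. Lag3 gave 5 and 7 UMIs (31.3 CPM in all, a share of 2.65% at 1000 UMIs), and Havcr2 was seen in 3.54% of T cells, both at or below the share in B cells. Sirpa had 29.1 to 44.3 CPM in control and 0 to 18.2 CPM in Arpc4ΔCx3cr1 mice, from only 5 and 2 UMIs. The share of all genes without overlap was not counted in T cell-like cells, and no difference is read from these counts. Cd80 gave 0 UMIs in both genotypes, where the floor of 3 counts is 21.9 CPM in control and 12.2 CPM in Arpc4ΔCx3cr1 cells.

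NK cell-like cells numbered 3, 4, 9 and 4 in control and 4, 8, 9 and 13 in Arpc4ΔCx3cr1 mice, again too few for a test. The cluster also had B cell genes such as Igkc among its leading genes, and beside 5246 CPM of the NK list it had 1262 CPM of the T cell, 624 CPM of the microglia and 479 CPM of the B cell list. Tigit gave 3 and 2 UMIs, 24.2 CPM in all. Cd200r1 gave 6 and 4 UMIs, 48.3 CPM against 28.3 CPM in empty droplets. Lag3 gave 3 and 4 UMIs (33.8 CPM), and Vsir 6 and 7 (62.9 CPM), with a share of 9.26% at 1000 UMIs, below that in B cells. Pdcd1 and Cd80 gave 0 UMIs in 54 cells, which allows a share of up to 5.56%. No member showed a genotype difference that these counts could resolve.

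**Figure D4:**
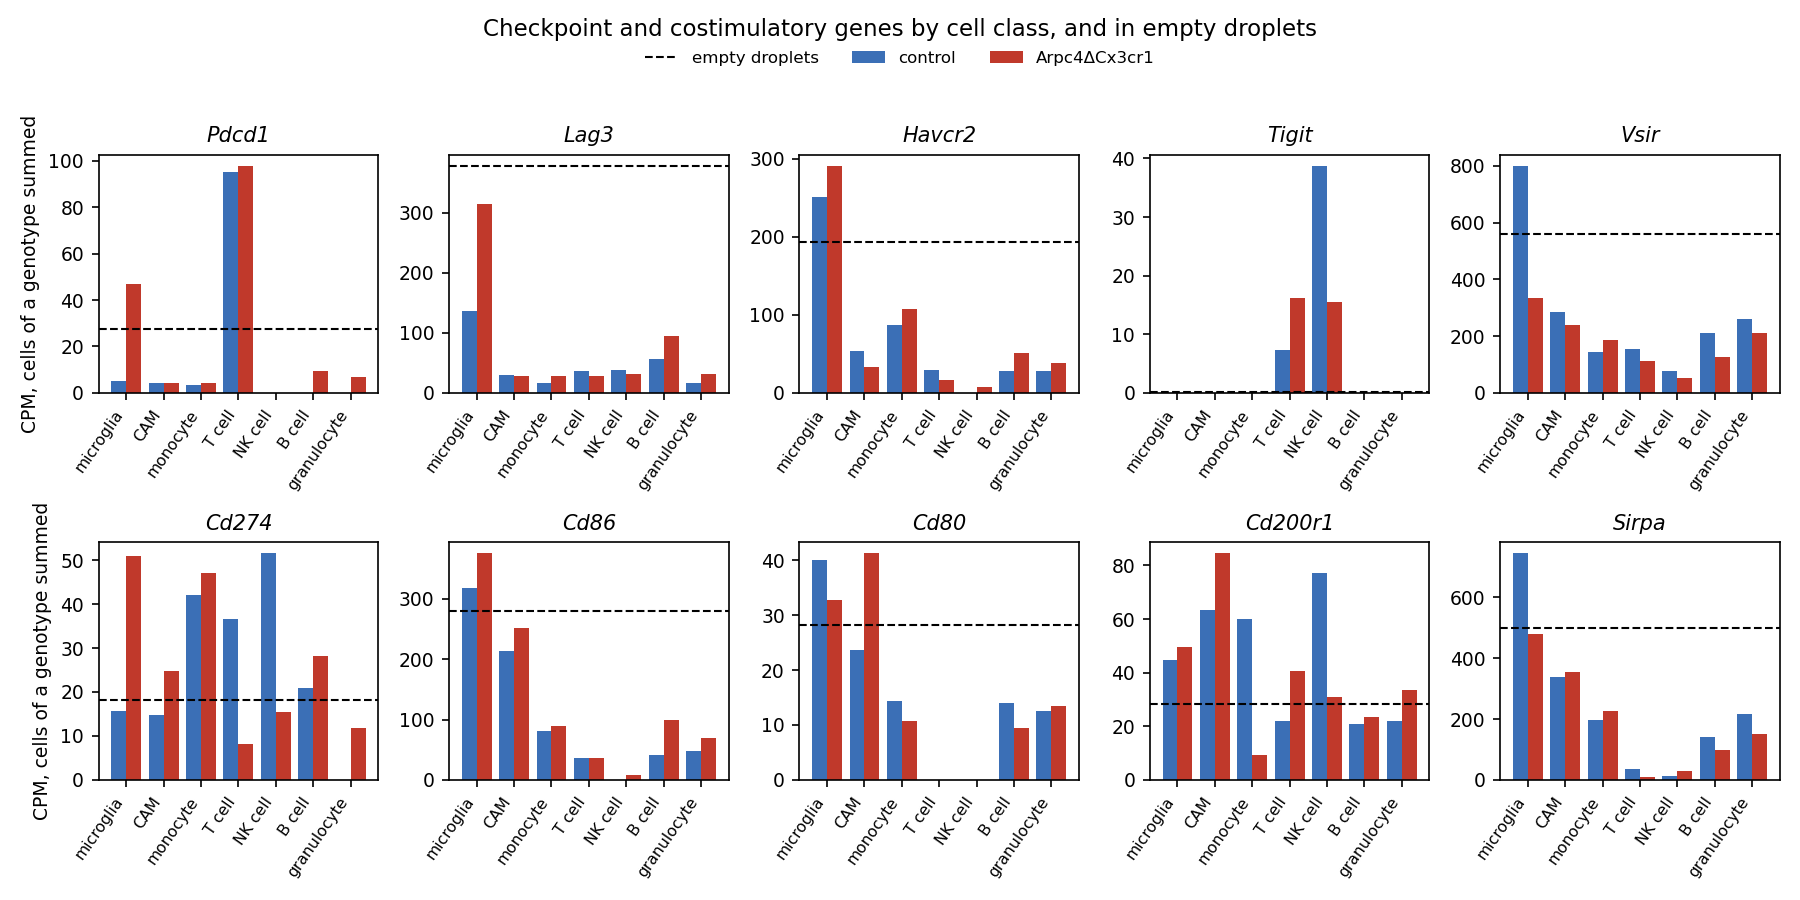
CPM of the members in 7 cell classes, with the UMIs of all cells of a genotype summed (blue control, red Arpc4ΔCx3cr1), and a dashed line at the level in empty droplets. Pdcd1 is at 94.9 CPM in control and 97.6 CPM in Arpc4ΔCx3cr1 T cells (16 of 24 UMIs from mouse 1), and Vsir and Sirpa are highest in control microglia.

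Empty droplets, 1769098 barcodes of at most 100 UMIs with 6848195 UMIs in all, mirror the pool. They held 561 CPM of Vsir, 499.7 of Sirpa, 280.4 of Cd86, 193 of Havcr2 and 378 of Lag3. The microglia list made up 15577 CPM of them and 854 CPM of T cells. The part of free RNA in the low levels of Vsir, Sirpa and Lag3 in lymphocytes was not tested.

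A wider gate, which takes any cell as a T cell by its own T cell UMIs, gave 101 control and 147 Arpc4ΔCx3cr1 cells (15, 30, 36 and 20 in control and 49, 18, 43 and 37 in Arpc4ΔCx3cr1 mice) and could be tested. Of 3390 genes, 65 passed (1.92%), and 2 of the 6 members tested did: Lag3, with a log2 fold change of 1.31 (SE 0.33, adjusted p = 0.0418, edgeR), and Vsir, with -1.19 (SE 0.24, adjusted p = 0.0104, edgeR). Lag3 had 30.6, 63.4, 49.7 and 62.0 CPM in the gated cells of control mice 1 to 4 and 78.0, 109, 176 and 140.4 CPM in Arpc4ΔCx3cr1 mice 1 to 4. Vsir had 252, 407, 265 and 469 CPM and 126, 164, 186 and 118 CPM. The genotypes overlapped in neither gene. Lag3 no longer passed when any 1 mouse other than Arpc4ΔCx3cr1 mouse 1 was left out (adjusted p of 0.0522 to 0.175, edgeR). Vsir did not pass without control mouse 2 (adjusted p = 0.0862, edgeR), Arpc4ΔCx3cr1 mouse 1 (0.0580) or Arpc4ΔCx3cr1 mouse 4 (0.0588). Over all fits with 1 mouse left out, the log2 fold change was 1.10 to 1.53 for Lag3 and -1.34 to -1.05 for Vsir. Of the 248 cells, 92 came from the mixed lymphoid clusters, where P2ry12, a microglial gene, was at 1478 CPM in control and 376 CPM in Arpc4ΔCx3cr1 cells, and 112 from the T cell-like class. In the mixed cells Lag3 was at 67.3 and 197 CPM and Vsir at 519 and 190.4 CPM, while in the gated T cell-like cells Lag3 was at 36.5 and 28.8 CPM and Vsir at 153 and 115 CPM. Without the mixed cells Vsir had -0.36 (adjusted p = 0.964, edgeR), Lag3 had too few counts to be tested, and the count of genes past the threshold was 0 by edgeR, of 1373 tested, with 69 under an unadjusted p of 0.05. In that fit control mouse 1 and Arpc4ΔCx3cr1 mouse 2 fell away for lack of cells, which left 3 against 3. The gated values therefore describe cells with microglial transcripts as well as T cells.

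The rest of the pathway was read from 7 lists of 54 other genes. Of the 27 that could be tested in microglia-like cells, 10 rose, 6 fell and 11 did not pass, that is 59.3% past the threshold beside 45.9% of all genes, with a median log2 fold change of 0.12. The other 27 had too few counts, Cd200 and Klrg1 with 0 UMIs. Without Arpc4ΔCx3cr1 mouse 1, 18 genes passed rather than 16. Among the 16, Ctla4 (log2 fold change 0.96) and Inpp5d (-0.14), named here after their values were seen, did not pass in 3 and 12 of the alternative settings, with an adjusted p of up to 0.0548 and 0.0979 (edgeR) when 1 mouse was left out.

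Among the B7 and CD28 relatives, 2 of 4 tested rose and 1 fell, with a median of -0.41. Cd276, which encodes the checkpoint ligand B7-H3, had 19.9, 20.9, 22.6 and 22.2 CPM in control mice 1 to 4 and 4.94, 9.08, 4.72 and 7.61 CPM in Arpc4ΔCx3cr1 mice 1 to 4. All Arpc4ΔCx3cr1 mice were below all control mice (log2 fold change -1.60, SE 0.18, adjusted p = 3.87e-05, edgeR). Pdcd1lg2, which encodes PD-L2, the other ligand of PD-1, and is named here after its values were seen, had 0.239, 0.103, 0.443 and 0.317 CPM in control and 0.932, 1.70, 2.66 and 1.88 CPM in Arpc4ΔCx3cr1 mice 1 to 4, from 9 and 80 UMIs. The groups did not overlap, and with too few counts the difference was not tested.

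Of the ligands of the members, 2 of 8 tested rose and 2 fell. Nectin3, a nectin of cell junctions, was listed as a ligand of TIGIT. It gave 5 UMIs in control and 403 in Arpc4ΔCx3cr1 cells, with 0.239, 0.103, 0.222 and 0.106 CPM in control and 14.3, 3.59, 7.64 and 10.6 CPM in Arpc4ΔCx3cr1 mice 1 to 4 (log2 fold change 5.87, SE 0.63, adjusted p = 2.66e-05, edgeR). It was all but unread in control cells, so the fold is loose. Lgals3, the gene of galectin-3, a ligand of LAG-3, had 56.0, 10.8, 10.6 and 11.2 CPM in control and 124, 67.0, 74.4 and 105 CPM in Arpc4ΔCx3cr1 mice 1 to 4 (2.38, SE 0.48, adjusted p = 0.00221, edgeR). Control mouse 1 was above the other control mice but below every Arpc4ΔCx3cr1 mouse, and without it the log2 fold change was 3.20. Selplg, whose product PSGL-1 binds VISTA, fell from 1686, 1752, 1623 and 1682 CPM to 692, 986, 1013 and 816 CPM (-0.84, SE 0.11, adjusted p = 8.43e-05, edgeR). Ceacam1, a ligand of TIM-3, fell from 16.7, 19.6, 18.9 and 19.3 CPM to 6.43, 10.9, 10.7 and 7.35 CPM (-0.98, SE 0.16, adjusted p = 0.000557, edgeR). So VISTA and its binding partner PSGL-1 both fell. Cd47, the ligand of SIRPα, had a log2 fold change of 0.03 (adjusted p = 0.756, edgeR) and Lgals9, the galectin-9 gene, of 0.12 (adjusted p = 0.181, edgeR), and neither passed.

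The other inhibitory receptors had 2 of 4 tested higher and 1 lower. Lilrb4a, an inhibitory receptor of myeloid cells, had 9.57, 7.43, 8.09 and 7.71 CPM in control and 171, 89.2, 65.4 and 114 CPM in Arpc4ΔCx3cr1 mice 1 to 4, with a log2 fold change of 3.88 (SE 0.30, adjusted p = 2.39e-06, edgeR). Every Arpc4ΔCx3cr1 mouse was far above the control mice, mouse 1 most. Lair1, a collagen receptor, fell from 806, 760.2, 798 and 754 CPM to 529, 643, 611 and 646 CPM (-0.25, SE 0.07, adjusted p = 0.0110, edgeR).

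Of the TIM and CD200 receptor relatives 1 of 9 could be tested and rose, Cd200r4, an activating relative of Cd200r1, with 3.11, 1.86, 1.77 and 2.85 CPM in control and 6.52, 7.38, 12.1 and 13.3 CPM in Arpc4ΔCx3cr1 mice 1 to 4 (2.20, SE 0.30, adjusted p = 0.000138, edgeR). Of the TNF superfamily genes, 4 of 13 were tested and 2 rose, among them Cd40, which primes antigen-presenting cells, with 1.67, 0.619, 1.33 and 0.951 CPM in control and 6.71, 6.48, 2.06 and 5.30 CPM in Arpc4ΔCx3cr1 mice 1 to 4 (2.35, SE 0.42, adjusted p = 0.000893, edgeR). The groups overlapped in neither gene. The 1 testable TIGIT family receptor rose, from a low level. Of the 5 phosphatase and adaptor genes 2 fell, Dok1 from 46.4, 52.4, 45.4 and 50.7 CPM to 36.0, 36.9, 34.3 and 32.9 CPM (-0.37, SE 0.06, adjusted p = 0.000735, edgeR). Reads that map equally well to 2 or more gene relatives, as in the Cd200r, Lilrb4 and Sirpb1 families, are not counted by Cell Ranger, so levels there are uncertain to that extent.

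**Figure D5:**
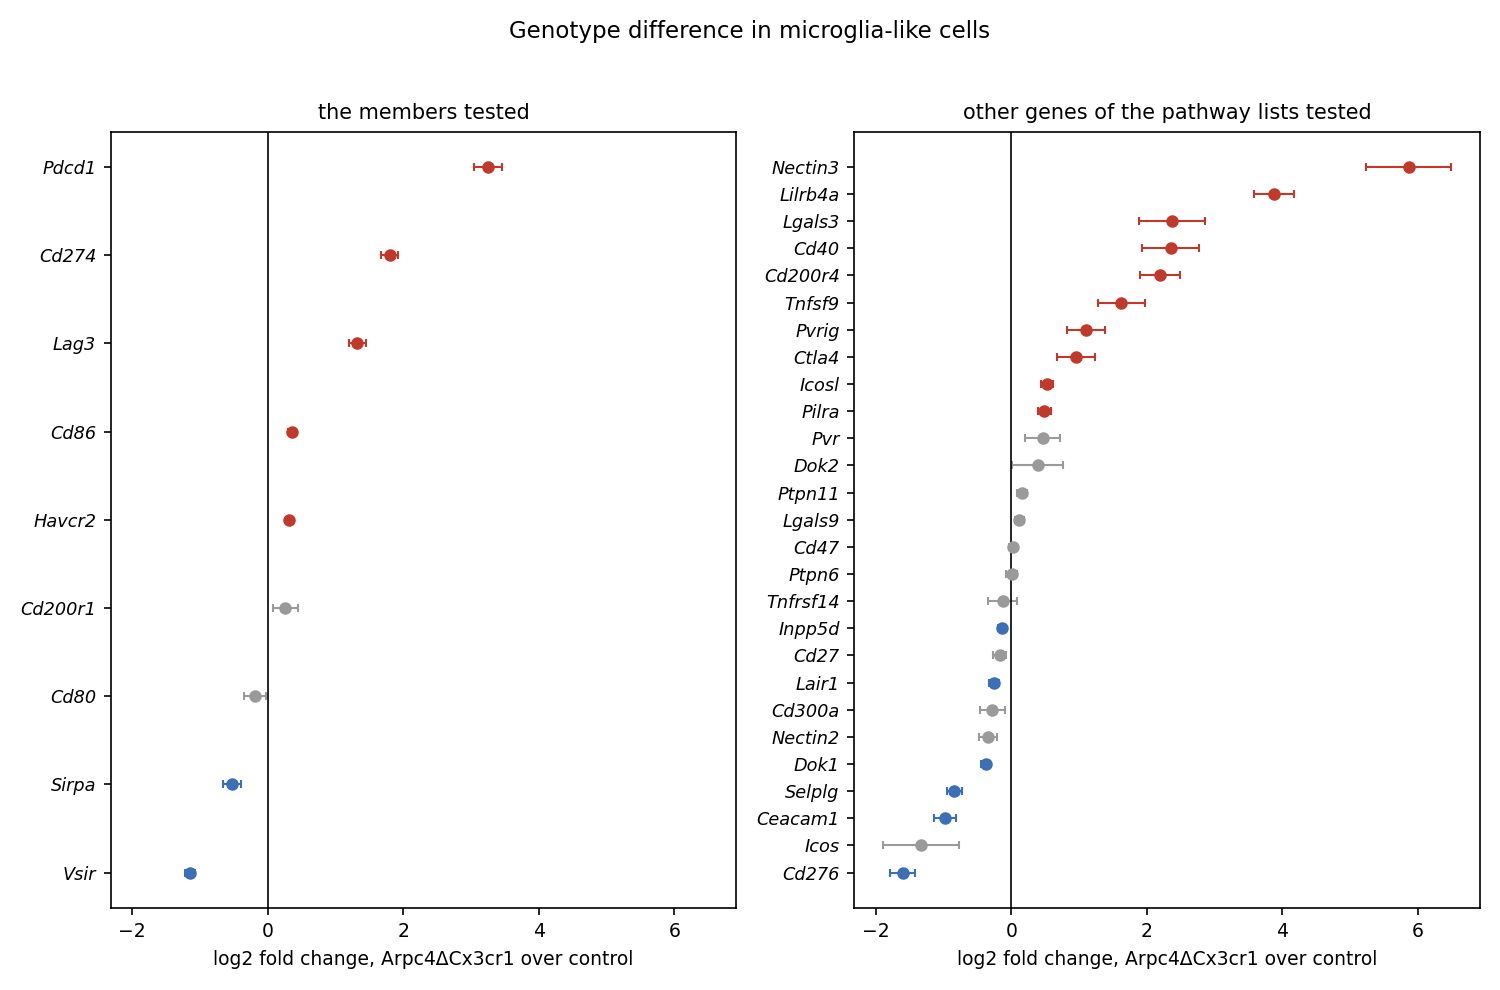
Log2 fold change, Arpc4ΔCx3cr1 over control, in microglia-like cells with its standard error (4 mice each), for the 9 members tested on the left and the 27 tested genes of the pathway lists on the right, in red where higher and in blue where lower past the threshold and in grey otherwise. Among the members Pdcd1 lies at 3.25, Cd274 at 1.80 and Lag3 at 1.32, and Vsir at -1.15 and Sirpa at -0.53.

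Without Arpc4ΔCx3cr1 mouse 1 the log2 fold changes of the named pathway genes were 5.56 for Nectin3, 3.59 for Lilrb4a, 2.36 for Cd200r4, 2.29 for Lgals3 and 2.20 for Cd40, and -1.49 for Cd276, -0.86 for Ceacam1, -0.74 for Selplg, -0.39 for Dok1 and -0.19 for Lair1. All 10 kept their direction and stayed past the threshold. The size of the rises depends on the background: after subtraction of a 10% ambient share the log2 fold changes were 9.45 for Nectin3, 6.24 for Lilrb4a, 3.35 for Lgals3, 2.99 for Cd40 and 2.65 for Cd200r4, while those of the 5 falls were -1.79 for Cd276, -1.07 for Ceacam1, -0.92 for Selplg, -0.46 for Dok1 and -0.27 for Lair1.

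Markers of other cells, summed per mouse in microglia-like cells, bear on these values. The B cell list, led by Ighm, had 2 of 7 markers tested, both lower (225 to 240.4 CPM in control, 72.3 to 138 CPM in Arpc4ΔCx3cr1 mice), and in the CAM list, led by Stab1, 1 of 5 tested was lower (164 to 185 CPM, and 66.8 to 156 CPM). The brain tissue list, led by Mbp and with Cldn5 and Rgs5 at 0, had 2 of 4 tested higher (28.7 to 39.1 CPM, and 42.9 to 45.7 CPM). The dendritic cell list, with Zbtb46 the most abundant, Ccr7 at 0, 1 marker higher and 1 lower, ran from 13.4 to 15.6 and from 18.9 to 25.3 CPM. Ccr2 of the monocyte list and Stmn1 of the proliferating list were lower, and Cdk1 of the proliferating list and Hbb-bs of the erythrocyte list higher, while the summed levels of the other lists overlapped between genotypes, with 10.99 to 15.8 and 10.3 to 12.1 CPM for monocytes, 31.1 to 35.6 and 30.4 to 39.8 CPM for ILC2, 81.8 to 98.5 and 84.7 to 86.9 CPM for granulocytes and 20.3 to 28.9 and 19.6 to 25.7 CPM for proliferating cells. Their part in the members' levels was not tested.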

How the data were processed

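Per the file headers and the authors' methods, the deposited files hold raw UMI counts per gene or tag and cell, made with Cell Ranger 7.1.0 on mm10 (the 10x reference built on it), with cells assigned to mice by tags. The submitters' processing notes name Cell Ranger 6.1.2 instead. The counts were used as deposited, and the SoupX step against ambient RNA that the authors' methods name was not repeated. The filters removed barcodes below 200 genes or above 20% mitochondrial UMIs, the 8 mice were clustered together in Seurat 5.3.0 (R 4.3.3) without the 10 members and the genes of the lists, and clusters were named by marker lists. Lymphoid clusters and microglia were clustered again. Counts were summed per mouse and class and tested with edgeR 4.0.16 (filterByExpr, TMM, quasi-likelihood F test, 4 control against 4 Arpc4ΔCx3cr1 mice, no covariates), with p adjusted by Benjamini-Hochberg over all genes tested and a threshold of 0.05. A test needed 3 mice per genotype with at least 10 cells, which T cell-like and NK cell-like cells did not reach. The wider T cell gate took cells with at least 2 UMIs summed over Cd3d, Cd3e, Cd3g, Trac and Trbc2, a part of the T cell list. CPM are UMIs of a gene over all gene UMIs of the mouse in the class. Shares of cells were read after drawing UMIs of each cell without replacement down to 2000 in microglia-like cells and 1000 elsewhere, without the shallower cells, and intervals are exact 95% binomial. Floors are 3 counts, and intervals and floors cover counting error only. Depth was 5251527 to 12878691 gene UMIs per mouse, and in microglia-like cells 4180996 to 11696847, where 1 UMI is 0.0855 to 0.239 CPM. The count of cells set the precision in lymphocytes, not the depth per mouse.

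The members and lists were chosen with earlier results of these data known. The rule for pathway genes named those past the threshold with no overlap and a mean of at least 5 CPM in 1 genotype, up to 5 in each direction. Pdcd1lg2, Cd47, Lgals9, Ctla4 and Inpp5d are outside it and were chosen after their values were seen. The alternatives were DESeq2 1.42.0, other size factors, no filter on low counts, each mouse left out, the mouse number as a block, a stricter cell filter, 10% ambient RNA subtracted, no very deep cells, and a clustering resolution of 0.4. The checks without the Ms4a7 and hemoglobin cluster, with shallow clusters and without mixed gated cells were chosen after seeing the data. The tests were also run on simulated data.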

Additional observations from a re-analysis of the deposited data

Results flagged for a closer look

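Of 84 groups of 4 mice looked at, 8 held a mouse far from the other 3, and chance gives about 1 in 20, or 4.2 groups. In control mouse 1 Lgals3 was at 56.0 CPM against 10.6 to 11.2 CPM in the other control mice, and Vsir was seen in 80.6% of thinned microglia-like cells against 79.0% to 79.1%. In the same mouse the monocyte markers summed to 15.8 CPM in microglia-like cells against 10.99 to 11.6 CPM, and the proliferation markers to 20.3 CPM against 27.8 to 28.9 CPM. Control mouse 2 had 5.68 CPM of erythrocyte markers against 3.06 to 3.44 CPM. Arpc4ΔCx3cr1 mouse 1 had 1346 CPM of erythrocyte markers against 3.76 to 4.55 CPM, and 1383 CPM of Xist against 6.01 to 13.3 CPM in the other 3. Arpc4ΔCx3cr1 mouse 2 had 12.1 CPM of monocyte markers against 10.3 to 10.6 CPM.

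Empty droplets, which are outside the cells compared between genotypes, held 3 of the members with at least 10 UMIs in microglia-like cells above the highest control mouse there, which leaves out Tigit. Lag3 was at 378 CPM against 149 CPM, Cd274 at 18.3 CPM against 16.7 CPM and Pdcd1 at 27.5 CPM against 6.09 CPM.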

How the results depend on the processing

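In microglia-like cells the count of genes past the threshold ran from 5178 to 6376 when 1 mouse was left out, and was 5364 with DESeq2, 5964 without the filter and 5768 with ambient RNA subtracted. The same direction and side of the threshold held in 359 of the 360 log2 fold changes of the 9 tested members, Arpc4 and the 10 pathway genes named by the rule, and the exception is Cd200r1 without Arpc4ΔCx3cr1 mouse 1. Ctla4 and Inpp5d, which are not among these, did not pass in 3 and 12 of the settings. The sizes of the rises of Pdcd1, Nectin3, Lilrb4a, Lgals3, Cd40 and Cd200r4 grew when ambient RNA was subtracted. The members past the threshold numbered 7 in every setting except without that mouse, where they were 8. Of the shares of cells, 109 moved by less than the spread between mice and 51 by more, all 51 at another thinning depth or without thinning and 0 when a mouse was left out.

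The control and Arpc4ΔCx3cr1 mice carry the same numbers but are not paired. With the number as a replicate block, 5514 genes passed in microglia-like cells and 69 in the T cell gate, with 7 and 2 members, and the deviations of same-numbered mice were not alike.

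The T cell gate depended on the processing. From 65 genes, the count went to 181 without the filter, 8 without the deepest cells and 24 to 91 when 1 mouse was left out, where control mouse 2 gave the lowest and control mouse 1 the highest. Without the gated cells of the mixed clusters, a check chosen after seeing the data, it was 0 in edgeR, with 69 genes at an unadjusted p under 0.05. That fit held 3 mice per genotype and fewer genes. The members past the threshold, 2 at first, were 1 with DESeq2, 1 with ambient RNA subtracted, 0 without the deepest cells, 0 without the mixed cells and 0 to 1 when 1 mouse was left out. With DESeq2 Lag3 had an adjusted p of 0.0910, and without the deepest cells Vsir had a log2 fold change of -0.92 (adjusted p = 0.193, edgeR). The cause was not tested.

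The 113 T cell-like and 54 NK cell-like cells limit what can be read there, and with too few cells per mouse no genotype test was run. Tags leave doublets within a mouse, free RNA is common to all mice, and 1 mouse of the Arpc4ΔCx3cr1 group differs from the others in Xist and hemoglobin genes. RNA levels do not give protein on the cell surface.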

Other observations

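Some cells lay in clusters led by the other genotype. Arpc4ΔCx3cr1 mice 2 and 3 had 119 and 37 cells in the control-led microglia clusters. In these cells Arpc4 was at 197 and 223 CPM, and Vsir at 727 and 730 CPM, near the levels of control mice. Pdcd1 was at 11.7 and 6.76 CPM (6 UMIs in all), Sirpa at 727 and 568 CPM, and Lag3 at 192 and 122 CPM. The difference from the other Arpc4ΔCx3cr1 cells was not tested, and clusters were chosen by expression, so a likeness to control cells was part of their choice.

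Control mice 1 to 4 had 13, 25, 33 and 32 cells in the chemokine cluster led by Ccl4 and Ccl3. Vsir there was at 577, 366, 374 and 468 CPM and Sirpa at 1042, 854, 865 and 892 CPM in the same cells. In the other Arpc4ΔCx3cr1-led clusters, which held 168 control cells, Lag3 was at 174 to 217 CPM and Vsir at 488 to 558 CPM. Both ranges were apart from those of the Arpc4ΔCx3cr1 cells there, but the share of all genes apart in these clusters was not counted. No separation of the genotypes is read from them. Cd274 was at 16.8 to 59.5 CPM and Pdcd1 at 10.8 to 35.8 CPM, which overlapped the 38.2 to 56.4 and 35.1 to 61.4 CPM of the Arpc4ΔCx3cr1 mice.

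Within Arpc4ΔCx3cr1 microglia-like cells thinned to 2000 UMIs, pairs of members were counted in the same cells. The share of cells with both Cd274 and Pdcd1, from 9 to 40 cells per mouse, was 0.9599 to 1.43 times the product of the single shares. The ratio was 1.05 to 1.34 for Lag3 and Pdcd1, 1.02 to 1.04 for Vsir and Sirpa and 0.956 to 1.03 for Havcr2 and Lag3. The departure of these ratios from 1 was not tested.

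T cell-like cells, few as they were, held CD8 and gamma delta T cell genes. With all cells of a genotype summed, Cd8b1 was at 489 CPM in control and 679 CPM in Arpc4ΔCx3cr1 cells, Trdc at 752 and 366 CPM, Gzmk at 110 and 248 CPM, Cxcr6, a gene of resident T cells, at 1015 and 773 CPM, and Tox, a gene of chronically stimulated T cells, at 394 and 346 CPM. Foxp3, the regulatory T cell factor, gave 0 and 6 UMIs. Gzmb in NK cell-like cells was at 1559 and 898 CPM, but control mouse 3 gave 96 of the 121 control UMIs. By mouse, 1 to 4, Gzmb was at 575, 1210, 2613 and 0 CPM in control and 858, 267, 1105 and 1101 CPM in Arpc4ΔCx3cr1 mice. The genotypes overlapped per mouse for each of these genes, and no difference was tested.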
